A study of Homo sapiens with 4 samples.

Results

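The genes described here are 37 components and targets of the unfolded protein response and the integrated stress response. They were listed by symbol and not by their values, though earlier results of these data were known. Each was matched by genome position to 1 row of a table of 60554 genes. All 37 matched, and all 37 were among the 12662 genes whose normalised count averaged at least 50 over the libraries, so no member was lost to the filter on low counts. By role, 15 encode chaperones and folding enzymes of the endoplasmic reticulum (ER), 4 act in ER-associated degradation, 3 are sensors or the factor they activate, 6 are transcription factors of the integrated stress response or their partners, and 9 are its targets and feedback genes.

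The study asked which RNAs are held by the microRNA miR-491-5p inside cells. IGROV1-R10 cells, a line labelled as ovarian cancer, were transfected with 60 nM of a biotinylated duplex, either miR-491-5p or a worm control miRNA that the design text calls cel-miR-65. Lysate was cleared of nuclei and debris, 10% of it was kept as input, and the rest was incubated for 4 h with streptavidin beads, which then received 5 washes. This gave 4 groups, all from the same line and all transfected: the miR-491-5p pull-down, the miR-491-5p input, the control pull-down and the control input. The RNA of 3 independent experiments was pooled before sequencing, so each group is 1 library and no value below has a replicate error. Intervals are 95% intervals that cover counting error only. No p-value is given.

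The table held 61705443 counts for the miR-491-5p pull-down, 59588552 for the miR-491-5p input, 62582646 for the control pull-down and 47679684 for the control input. The members took 0.598% and 0.621% of the miR-491-5p pull-down and input, and 0.525% and 0.590% of the control pull-down and input. Of 11 epithelial and ovarian carcinoma markers, 10 were measured, PAX8, EPCAM, KRT8 and VIM among them, and CDH2 had at most 12 counts in any library. Markers of hepatocytes, 14 genes, had in all 40 and 21 counts in the miR-491-5p pull-down and input, 30 counts in the control pull-down, and 2867 counts in the control input, where they made up 0.00601% of the library.

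When unfolded proteins gather in the ER, the sensors IRE1 (encoded by ERN1), ATF6 and PERK turn on genes for chaperones, folding enzymes and the degradation of misfolded proteins. IRE1 splices XBP1 mRNA, ATF6 is cut to release a transcription factor, and PERK phosphorylates the translation factor eIF2α. That phosphorylation is shared with kinases that sense amino acid shortage, viral RNA and heme shortage: it slows general translation and favours translation of ATF4, which drives genes for amino acid supply and for cell death, a program called the integrated stress response (ISR).

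The mature miRNA that was transfected is printed here because both pull-down and input comparisons turn on it. RefSeq places it at chr9:20716120-20716141 on the plus strand of GRCh38.p14, and the capitals are its seed, bases 2 to 8. The sequence of the control miRNA was not used here.

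hsa-miR-491-5p: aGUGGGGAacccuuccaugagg

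Promoters were read for motifs tied to the arms of the response. Windows of 250 bases before to 50 bases after the RefSeq start were available for 35 members (not for PDIA3 or NUPR1), and 4 motifs were searched on both strands. The ER stress response element ERSE, CCAAT and CCACG parted by 9 bases of any kind, is bound by ATF6 with NF-Y. It was found in 7 of the 35 members (HSPA5, HSP90B1, CALR, CANX, CRELD2, ERO1B and XBP1), against 22 of 27305 promoters of the same length (0.0806%). ERSE-II, ATTGG and CCACG parted by 1 base of any kind, was found in 3 members (HYOU1, SDF2L1 and HERPUD1), against 15 promoters (0.0549%). The unfolded protein response element UPRE, TGACGTGG, was found in HYOU1 alone of the members, where it overlaps the ERSE-II match, against 217 promoters (0.795%). The C/EBP-ATF response element CARE, TTNCATCA, through which ATF4 acts, was found in 4 members (HERPUD1, ATF3, CHAC1 and ASNS), against 1003 promoters (3.67%). A match describes the letters of the window only, and the lack of one says nothing about a factor.

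The stretches below, from RefSeq on GRCh38.p14, are shown for some of the members with a match, and capitals mark the motif. ATF5 and TRIB3, among the members with the largest input ratios described below, have windows without a match. In CRELD2, ATF3 and ASNS the match is on the other strand, so the capitals read as the reverse complement of the motif. ERSE is marked in the HSPA5 stretch chr9:125241351-125241449 (minus strand), the XBP1 stretch chr22:28800563-28800661 (minus), the CANX stretch chr5:179698738-179698836 (plus) and the CRELD2 stretch chr22:49918514-49918612 (plus). CARE and then ERSE-II are marked in the HERPUD1 stretch chr16:56931926-56932075 (plus). CARE is marked in the ATF3 stretch chr1:212565176-212565263 (plus), the CHAC1 stretch chr15:40953222-40953309 (plus) and the ASNS stretch chr7:97872429-97872516 (minus).

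HSPA5: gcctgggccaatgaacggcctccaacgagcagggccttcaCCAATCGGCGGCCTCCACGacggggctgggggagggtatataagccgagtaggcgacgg
XBP1: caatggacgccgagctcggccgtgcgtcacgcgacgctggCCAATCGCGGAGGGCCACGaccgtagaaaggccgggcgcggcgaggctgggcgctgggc
CANX: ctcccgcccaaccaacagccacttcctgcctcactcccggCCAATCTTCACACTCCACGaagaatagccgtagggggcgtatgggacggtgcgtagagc
CRELD2: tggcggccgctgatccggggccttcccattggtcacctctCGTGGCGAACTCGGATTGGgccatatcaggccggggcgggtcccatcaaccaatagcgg
HERPUD1: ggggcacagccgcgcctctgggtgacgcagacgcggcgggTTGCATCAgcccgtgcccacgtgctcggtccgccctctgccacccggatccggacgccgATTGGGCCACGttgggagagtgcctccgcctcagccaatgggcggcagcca
ATF3: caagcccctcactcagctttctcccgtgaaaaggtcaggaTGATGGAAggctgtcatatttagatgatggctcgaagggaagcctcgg
CHAC1: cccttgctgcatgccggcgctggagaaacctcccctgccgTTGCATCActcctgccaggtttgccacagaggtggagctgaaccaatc
ASNS: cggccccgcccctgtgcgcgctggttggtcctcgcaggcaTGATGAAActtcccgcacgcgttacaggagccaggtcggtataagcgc

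Genes are placed here on GRCh38 by the span of their exons in the deposited table: CANX at chr5:179678628-179730925 (plus strand), ATF3 at chr1:212565334-212620777 (plus), ATF4 at chr22:39519695-39522685 (plus), CHAC1 at chr15:40952962-40956519 (plus) and MANF at chr3:51385047-51389397 (plus).

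Levels are given per kilobase of exon, as normalised counts divided by the length of the gene's merged exons and averaged over the 4 libraries. The members spanned a wide range. On this scale PSAT1, which makes phosphoserine in serine synthesis, stood at 12645, close to the chaperone HSP90B1 (GRP94) at 12509. CALR (calreticulin) stood at 9554, CANX (calnexin) at 7719, PDIA3 at 5618 and ATF4 at 5303. HSPA5 (BiP, the main ER chaperone of the Hsp70 family) stood at 4965 and XBP1 at 4587. The lowest levels were those of NUPR1, a small stress-induced chromatin protein, at 16.5, the oxidase ERO1B at 51.6, ERN1 at 53.4 and the ubiquitin ligase SYVN1 at 59.8. By summed counts the chaperones led: the 15 folding genes summed to 257291 of 369264 member counts in the miR-491-5p pull-down.

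**Figure D1:**
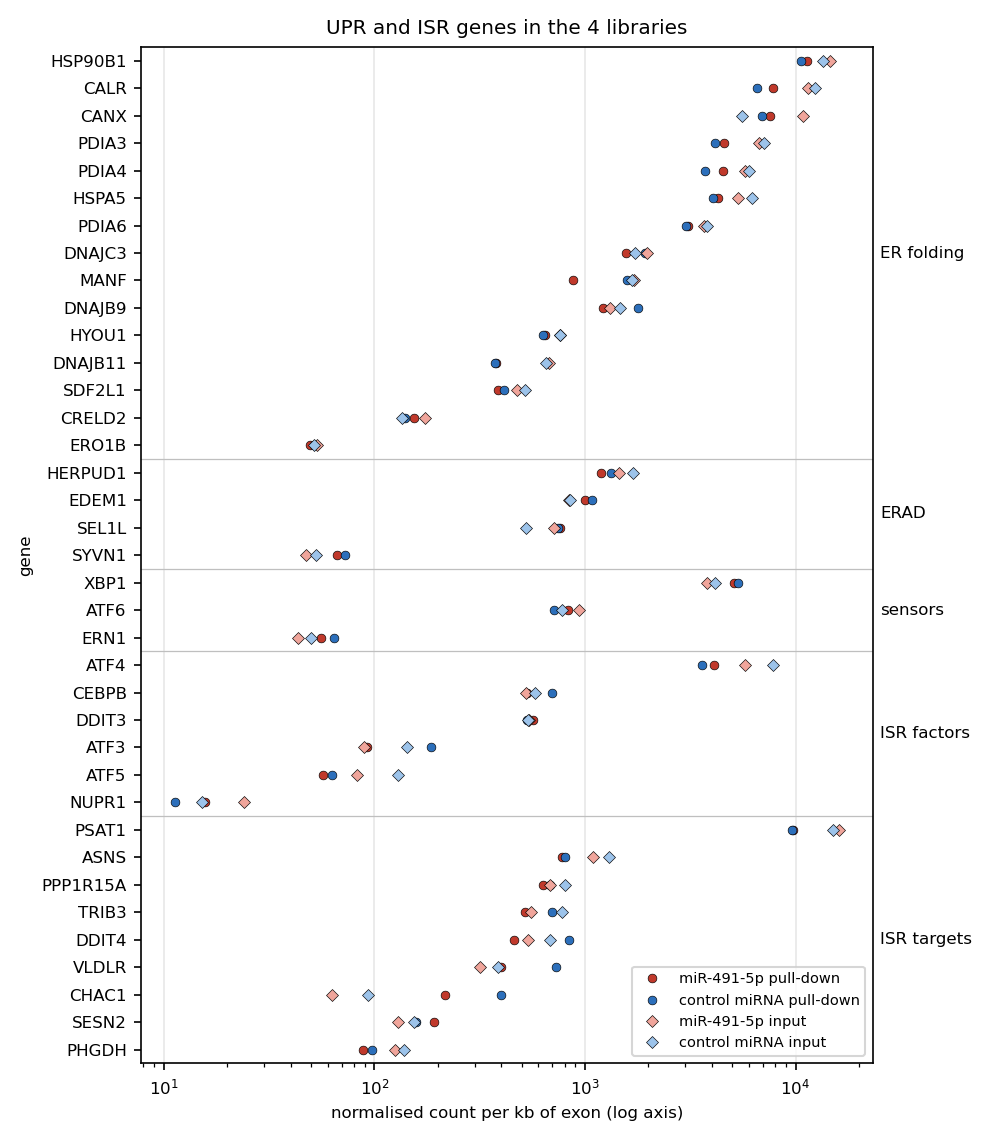
Normalised counts per kilobase of exon (log axis) for each of the 37 members, grouped by role, with 1 point for each of the 4 libraries. The points of a gene lie close together compared with the distance between genes, the widest spread among them being that of CHAC1.

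In the inputs, which hold the cytoplasmic RNA of the transfected cells, ISR transcription factors and targets were mostly lower with miR-491-5p than with the control, while ER folding genes lay on both sides. Input values are log2 ratios of miR-491-5p input over control input, from normalised counts plus 1. The median over the 37 members was -0.12, against -0.01 over all genes measured, and 25 of 37 members were below 0, against 51% of all genes. For 20 members the whole interval lay below 0 (29.5% of all genes), for 8 it lay above 0 (29% of all genes), and for 9 it held 0. These intervals narrow as counts rise, so such shares also depend on how abundant the genes are. Taken by arm, the 15 ISR factors and targets had a median of -0.26 with 12 below 0, and the 22 folding, degradation and sensor genes had a median of -0.03 with 13 below 0. Since libraries of whole cultures were compared, fewer cells with a transcript and less of it per cell cannot be told apart.

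The ratios were small. At least 1.5-fold with an interval that excludes 0, 2 members were higher (CANX and NUPR1; 3.44% of all genes) and 2 were lower (ATF3 and ATF5; 3.03% of all genes). No member reached 2-fold, where 0.727% of all genes were higher and 0.513% lower. The central 95% of all genes ran from -0.63 to 0.68.

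Among the transcription factors, ATF3, a stress-induced repressor of the ATF/CREB family, had 362 normalised counts in the input after miR-491-5p and 578 after the control, and 373 on the beads after miR-491-5p and 750 after the control. Both miR-491-5p libraries were lower than both control libraries. The input ratio was -0.68 (-0.88 to -0.47). ATF5, related to ATF4, had 243 normalised counts in the input after miR-491-5p and 383 after the control, and 169 on the beads after miR-491-5p and 186 after the control. Its input ratio was -0.65 (-0.90 to -0.40), and the pull-downs lay closer together than the inputs. ATF4, the central factor of the ISR, had 14434 normalised counts in the input after miR-491-5p and 19571 after the control, with a ratio of -0.44 (-0.47 to -0.41). DDIT3 (CHOP), which promotes death under lasting ER stress, had nearly the same level in every library: 686 and 714 normalised counts in the miR-491-5p input and pull-down, against 681 and 675 in the control input and pull-down. NUPR1 lay the other way from ATF3, ATF4 and ATF5, with 136 normalised counts in the input after miR-491-5p and 86.1 after the control, and 88.9 on the beads after miR-491-5p and 63.9 after the control. These low counts gave a wide interval (0.23 to 1.08) around its input ratio of 0.65. CEBPB, a partner of these factors, had an input ratio of -0.14.

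Of the 9 ISR targets and feedback genes, 8 were below 0 in the input, 7 of them with the whole interval. CHAC1, an enzyme that degrades glutathione, had 130 normalised counts in the input after miR-491-5p and 193 after the control, from 124 and 150 raw counts, with a ratio of -0.57 (-0.91 to -0.23). TRIB3, a pseudokinase that restrains ATF4, had 1912 normalised counts in the input after miR-491-5p and 2665 after the control, and 1791 on the beads after miR-491-5p and 2407 after the control, with an input ratio of -0.48 (-0.57 to -0.39). As for ATF3, both miR-491-5p libraries were lower. The mTORC1 inhibitor DDIT4 (REDD1) was at -0.34, the lipoprotein receptor VLDLR at -0.27, the stress regulator SESN2 at -0.26 and asparagine synthetase, ASNS, at -0.25. PPP1R15A (GADD34), which brings the phosphatase that reverses eIF2α phosphorylation, was at -0.24. The interval of PHGDH, the first enzyme of serine synthesis, held 0 at -0.14. PSAT1, of the same pathway, was the target above 0, at 0.09 (0.07 to 0.12).

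Among the ER folding genes the input median was -0.01, with 8 of 15 below 0. CANX, a membrane chaperone that holds glycoproteins through their sugars, stood apart from the other folding genes: 67589 normalised counts in the input after miR-491-5p and 34644 after the control, a ratio of 0.96 (0.94 to 0.98), higher than 99.2% of all genes. In the pull-downs its counts were 47099 after miR-491-5p and 43177 after the control, so the miR-491-5p input lay above both pull-downs and the control input below both. Its soluble relative CALR was at -0.10. HSPA5 had 20843 normalised counts in the input after miR-491-5p and 24236 after the control, and 16760 on the beads after miR-491-5p and 15770 after the control. Its input ratio was -0.22 (-0.25 to -0.19). CRELD2, a secreted ER stress protein, was at 0.36, DNAJC3, a co-chaperone that inhibits PERK, at 0.19, and HSP90B1 at 0.12. The disulfide isomerases PDIA3, PDIA4 and PDIA6 were at -0.08, -0.06 and -0.05, and the BiP co-chaperone DNAJB9 was at -0.16. The intervals of DNAJB11, HYOU1, SDF2L1, MANF and ERO1B held 0.

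In ER-associated degradation, SEL1L, the adaptor of the SYVN1 ligase complex, was at 0.44 (0.38 to 0.50), and HERPUD1, another member of that complex, was at -0.22. The intervals of SYVN1 and of EDEM1, a lectin that hands glycoproteins to degradation, held 0. Among the sensors, ATF6 was at 0.27 and ERN1 at -0.21. XBP1 had 11486 normalised counts in the input after miR-491-5p and 12519 after the control, with a ratio of -0.12. Counts per gene do not separate spliced from unspliced XBP1.

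Promoter motifs can be set beside the same values. The 4 members with CARE were all below 0 in the input, with a median of -0.41. The 10 members with ERSE, ERSE-II or UPRE had a median of -0.05, with 6 below 0, and HERPUD1 is in both groups. The 22 members with a window but none of the 4 motifs had a median of -0.14, with 15 below 0. Of all genes 51% were below 0, and no difference between these groups was tested.

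**Figure D2:**
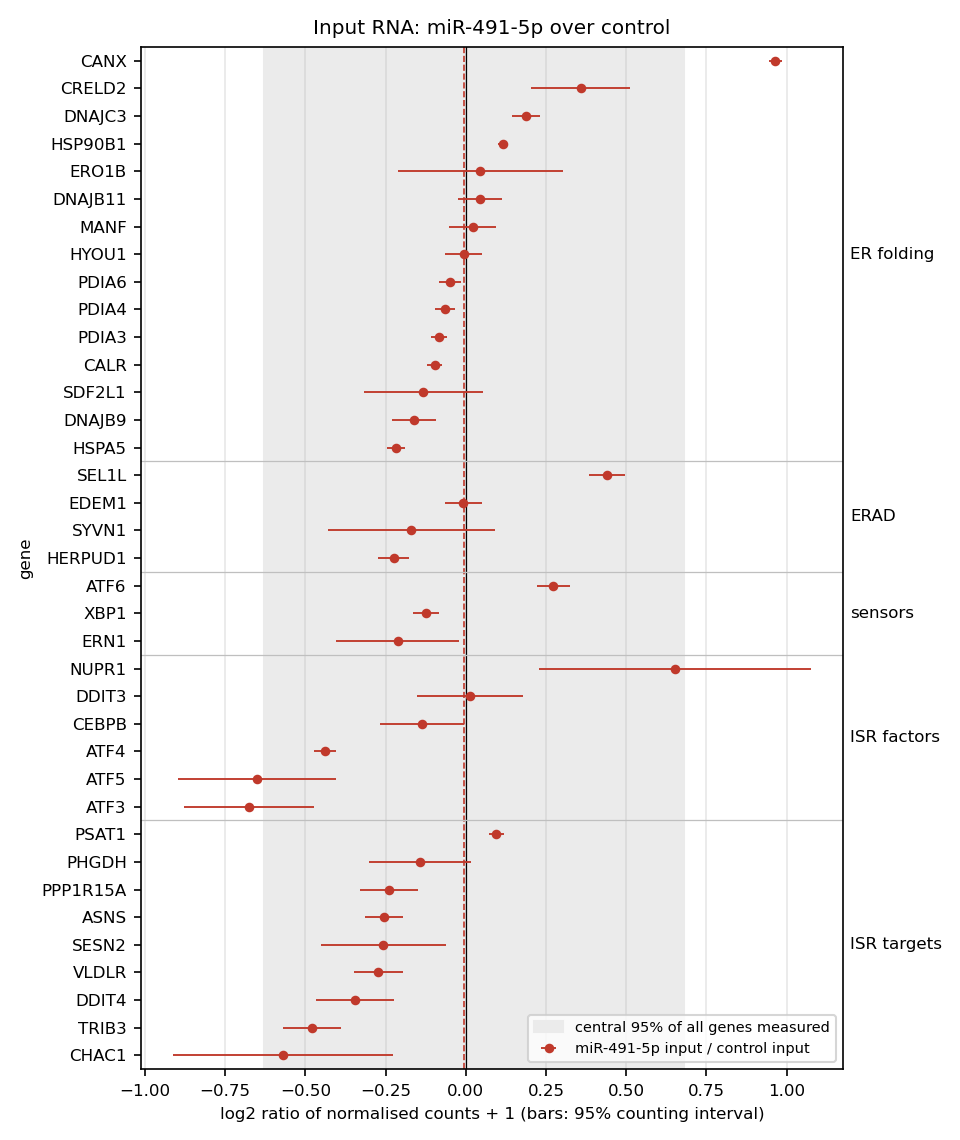
Log2 ratio of miR-491-5p input over control input for each of the 37 members by role, with bars for the 95% counting interval and a band for the central 95% of all genes measured (-0.63 to 0.68). CANX lies above the band, ATF3 and ATF5 lie below it, and 8 of the 9 ISR targets lie left of 0.

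Hepatocyte markers, and less so the summed fibroblast and immune markers, were higher in the control input. The 14 hepatocyte markers came to 21.9 normalised counts in the miR-491-5p input, with 8 of 14 at 0 (APOA2, APOC3, APOH, HP, FGA, FGB, ORM1 and SERPINA1), against 3684 in the control input, with none at 0. In the pull-downs they summed to 32.3 after miR-491-5p and 26.6 after the control, with 6 at 0 in each. The 6 fibroblast markers summed to 288 normalised counts in the input after miR-491-5p and 752 after the control, but among them DCN was higher after miR-491-5p, with 46.0 and 25.7 after the control, and LUM was level, with 10.4 and 10.3. The sums of the 6 immune markers were 19.9 after miR-491-5p and 73.2 after the control, and those of the 4 adipocyte markers 2.09 and 0. Of the 10 epithelial and ovarian carcinoma markers measured, 6 were below 0 in the input, each with the whole interval, and their median was -0.25, close to the -0.26 of the ISR arm. KRT18 was at -0.61 and KRT8 at -0.37. The other 4 were above 0, 3 of them with the whole interval: CDH1 at 0.69, MUC16 at 0.51 and EPCAM at 0.49. The part of these markers in the input ratios of the members was not tested.

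The pull-down question is which RNAs were on the miR-491-5p beads beyond what the inputs give. Enrichment is the log2 of the pull-down ratio divided by the input ratio, each miR-491-5p over control, the study's own formula. The members showed no common enrichment: their median was -0.01, against 0.00 over all genes, and 20 of 37 were below 0, against 49.9% of all genes. At least 1.5-fold with an interval that excludes 0, 1 member was higher (ATF4; 13.2% of all genes) and 3 were lower (MANF, CANX and VLDLR; 14% of all genes). No member reached 2-fold in either direction, which 4.46% of all genes did upward and 5.32% downward. The central 95% of all genes ran from -1.33 to 1.23 and covered every member.

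ATF4 had 10312 normalised counts on the beads after miR-491-5p and 9004 after the control, and its input counts, given above, ran the other way. Its enrichment of 0.63 (0.58 to 0.69) thus combined a pull-down ratio of 0.20 with the lower input. SESN2 had 666 normalised counts on the beads after miR-491-5p and 545 after the control, and 447 in the input after miR-491-5p and 535 after the control, giving 0.55 (0.30 to 0.79). ATF5, at 0.51 (0.14 to 0.88), owed its value to the inputs in the same way, since its pull-down ratio was -0.14. Next came PDIA4 at 0.35, CALR at 0.34 and HSPA5 at 0.31.

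At the other end, MANF, a secreted factor that binds BiP, had 1856 normalised counts on the beads after miR-491-5p and 3327 after the control, with inputs of 3596 after miR-491-5p and 3544 after the control. The inputs were nearly equal, so its enrichment of -0.86 (-0.97 to -0.76) came from the pull-downs. For CANX the reverse held: the pull-downs were nearly equal and the enrichment of -0.84 (-0.87 to -0.81) came from the inputs. VLDLR had 3736 normalised counts on the beads after miR-491-5p and 6813 after the control, and 2975 in the input after miR-491-5p and 3594 after the control, giving -0.59 (-0.69 to -0.50). DDIT4 had 952 normalised counts on the beads after miR-491-5p and 1731 after the control, and 1110 in the input after miR-491-5p and 1410 after the control, giving -0.52 (-0.68 to -0.36). For both genes the gap between pull-downs was wider than that between inputs. The intervals of 14 members held 0, DDIT3, HSP90B1, ERN1 and ATF6 among them, and XBP1 was at 0.07.

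**Figure D3:**
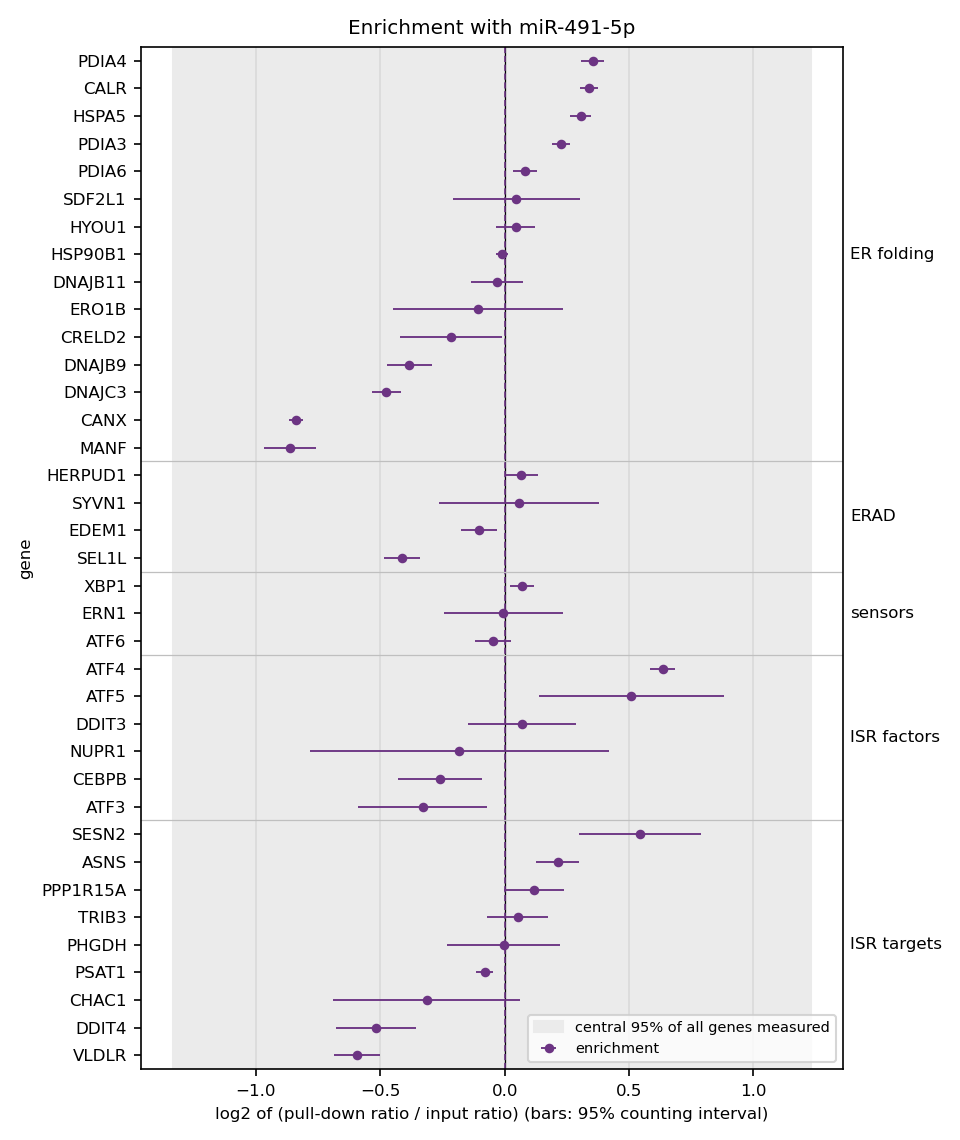
Enrichment (log2 of the pull-down ratio over the input ratio, miR-491-5p over control) for each of the 37 members by role, with bars for the 95% counting interval and a band for the central 95% of all genes measured (-1.33 to 1.23). Every member lies inside the band, from MANF at -0.86 to ATF4 at 0.63.

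Compared directly, miR-491-5p pull-down over control pull-down, the members had a median log2 ratio of -0.06, against 0.01 over all genes, with 20 of 37 below 0 (49.1% of all genes). None was at least 1.5-fold higher (10% of all genes), and 5 were at least 1.5-fold lower (ATF3, CHAC1, VLDLR, DDIT4 and MANF; 10.7% of all genes). ATF3 was the lowest at -1.01 (-1.17 to -0.84) and the only member past 2-fold (3.17% of all genes). CHAC1 had 446 normalised counts on the beads after miR-491-5p and 822 after the control, a ratio of -0.88. VLDLR was at -0.87, DDIT4 at -0.86 and MANF at -0.84. DNAJB9 followed at -0.54, with 3461 normalised counts on the beads after miR-491-5p and 5046 after the control, and 3743 in the input after miR-491-5p and 4185 after the control. Of these 6 genes ATF3, CHAC1, VLDLR and DDIT4 belong to the ISR. For each of these, and for DNAJB9, the miR-491-5p input was the lower input as well, while the inputs of MANF were nearly equal. HSPA5 was at 0.09 and XBP1 at -0.06, which turned to 0.10 with total-count scaling.

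Each pull-down can also be set against its own input, which shows what was on the beads with either miRNA. Both comparisons are log2 ratios of pull-down over input. On the miR-491-5p beads the member median was -0.23, against -0.15 over all genes, with 26 of 37 below 0 (60.2% of all genes). On the control beads it was -0.13, against -0.15, with 22 of 37 below 0 (57.9% of all genes). At least 1.5-fold, 1 member was higher on the miR-491-5p beads (CHAC1; 12.5% of all genes) and 4 were lower (MANF, DNAJB11, PSAT1 and NUPR1; 20.8% of all genes). On the control beads 2 were higher (CHAC1 and VLDLR; 17.7% of all genes) and 9 were lower (ATF4, ATF5, CALR, DNAJB11, PDIA3, ASNS, PDIA4, PSAT1 and HSPA5; 26.9% of all genes). At least 2-fold, CHAC1 was higher and 0 members were lower on the miR-491-5p beads (5.34% and 4.96% of all genes), while on the control beads CHAC1 was higher and ATF4 and ATF5 were lower (8.61% and 10% of all genes). At 1.5-fold in both, CHAC1 was higher (6.98% of all genes were higher in both) and DNAJB11 and PSAT1 were lower (13.5% of all genes were lower in both).

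CHAC1 was the member most gained on both kinds of bead. Its counts were 551 on the miR-491-5p beads, beside 124 in their input, and 926 on the control beads, beside 150 in theirs. After normalisation the ratios were 1.77 (1.49 to 2.05) after miR-491-5p and 2.09 (1.84 to 2.34) after the control, above 98.8% and 98.6% of all genes. Both pull-downs were thus well above both inputs. VLDLR was at 0.33 on the miR-491-5p beads and 0.92 on the control beads, and SESN2 at 0.57 on the miR-491-5p beads and 0.03 on the control beads.

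On the beads the medians of the roles lay apart. The 15 folding genes had a median of -0.33 after miR-491-5p and -0.33 after the control, and 13 and 9 of them were below the all-gene median. Scaling shifts every gene and the all-gene median almost equally, so those counts cannot show whether the result depends on it. With total counts the median of all genes on the miR-491-5p beads was 0.17 and that of the folding genes -0.01. The sensors and XBP1, 3 genes, lay on both sides: the sensor ATF6 was at -0.18 on the miR-491-5p beads and -0.13 on the control beads, and the sensor ERN1 at 0.36 on both. The 4 degradation genes had a median of 0.17 on the miR-491-5p beads and 0.39 on the control beads, but HERPUD1 among them was at -0.29 and -0.35 on the same beads. XBP1 had 15477 normalised counts on the miR-491-5p beads, beside 11486 in their input, and 16082 on the control beads, beside 12519 in theirs, ratios of 0.43 and 0.36. The ISR factors had a median of -0.23 on the miR-491-5p beads and -0.22 on the control beads, and the ISR targets -0.12 and -0.15 on the same beads. With total-count scaling, which moves all genes up, the miR-491-5p bead median of the ISR factors was 0.09 and that of the targets 0.20.

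Within the folding genes, CALR had 21156 normalised counts on the miR-491-5p beads, beside 31256 in their input, and 17873 on the control beads, beside 33431 in theirs, ratios of -0.56 and -0.90. HSPA5 was at -0.31 after miR-491-5p, or 0.0049 with total-count scaling, and -0.62 after the control. DNAJB11, a co-chaperone of BiP, had 2251 normalised counts on the miR-491-5p beads, beside 4024 in their input, and 2230 on the control beads, beside 3902 in theirs, ratios of -0.84 and -0.81. Among abundant ISR targets, PSAT1 had 21201 normalised counts on the miR-491-5p beads, beside 35359 in their input, and 20991 on the control beads, beside 33115 in theirs, ratios of -0.74 and -0.66. For both genes the beads differed little between the miRNAs. ATF4 was at -0.49 after miR-491-5p and -1.12 after the control, and DDIT3 was near 0 on both, at 0.06 and -0.01.

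**Figure D4:**
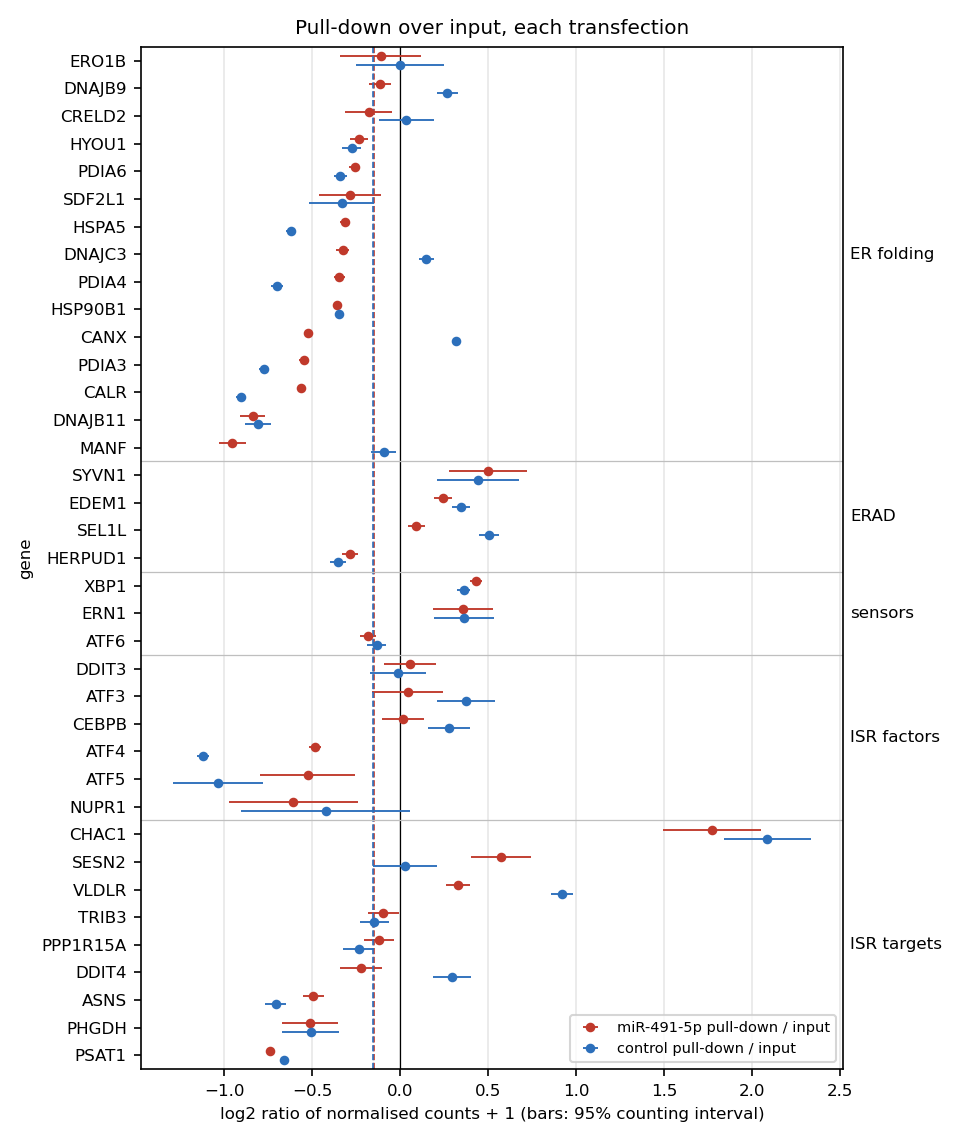
Log2 ratio of pull-down over its own input for each of the 37 members by role, with bars for the counting interval. Both ratios share the horizontal axis, and colour marks the miRNA: red for miR-491-5p and blue for the control. CHAC1 lies far right, at 1.77 on the miR-491-5p beads and 2.09 on the control beads, and most folding genes lie left of 0.

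Other genes of the same pathways were taken from 2 further lists. Of 35 other unfolded protein response genes 31 were measured. Their input median was -0.08, and 20 of the 31 were below 0 (51% of all genes). At least 1.5-fold, 2 genes were higher and 0 lower (3.44% and 3.03% of all genes). The largest input ratios were those of EDEM3 (1.27), MBTPS2 (0.64) and CREB3L2 (-0.52). Their enrichment median was 0.22, against 0.00 over all genes, and 21 of the 31 were above 0, against 50.1% of all genes. At least 1.5-fold, 3 were higher and 3 lower (13.2% and 14% of all genes). The largest absolute values were on the lower side, those of EDEM3 (-2.53), DERL2 (-0.73) and MBTPS2 (-0.72). EDEM3, a mannosidase of ER-associated degradation, had 5737 normalised counts on the beads after miR-491-5p and 13757 after the control, and 5735 in the input after miR-491-5p and 2380 after the control, so both pairs contributed. Between pull-downs the list's median was 0.06, with EDEM3 at -1.26, the PERK gene EIF2AK3 at -0.68 and DERL2 at -0.65. On the beads the list had medians of -0.26 after miR-491-5p and -0.64 after the control, and 8 of the 31 genes were at least 1.5-fold lower than in the input on the miR-491-5p beads (20.8% of all genes), and 17 on the control beads (26.9% of all genes). SEC61B, a subunit of the translocation channel, was at -1.33 on the miR-491-5p beads and -1.27 on the control beads.

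Of 35 other ISR genes 33 were measured, with an input median of -0.11, 1 at least 1.5-fold higher (3.44% of all genes) and 2 lower (3.03% of all genes): KLHL24 (0.81), the amino acid transporter SLC7A5 (-0.65) and the growth arrest gene GADD45A (-0.60). Their enrichment median was -0.10, with 1 higher and 6 lower (13.2% and 14% of all genes), led by CEBPG (-1.63), SLC7A11 (-1.37) and CDKN1A (-1.32). CEBPG, a dimer partner of ATF4, had 4509 normalised counts on the beads after miR-491-5p and 13613 after the control, with inputs of 5922 after miR-491-5p and 5776 after the control. As for MANF, the inputs were nearly equal and the pull-downs were not. Between pull-downs the list's median was -0.14, with 0 higher and 6 lower (10% and 10.7% of all genes), led by CEBPG (-1.59), CDKN1A (-1.12) and MTHFD2 (-0.996), and on the beads it was -0.39 after miR-491-5p and -0.27 after the control. SLC38A2, an amino acid transporter, had 82737 normalised counts on the miR-491-5p beads, beside 65014 in their input, and 122352 on the control beads, beside 57622 in theirs.

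Some values are less certain for reasons of counting. Reads were counted without regard to strand, and reads that fell on several genes or positions were left out. More than 10% of exon bases are shared with other genes in 8 members, from 10.1% in SYVN1 to 41.2% in DDIT4, with DDIT3, PDIA6, ATF5, PDIA3, DNAJB11 and CEBPB between them. RefSeq lists pseudogenes named after HSPA5, PDIA3, XBP1, ATF4, ASNS and PSAT1, and reads that fit both copies equally were left out.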

How the data were processed

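RNA of 4 libraries was sequenced after a stranded total RNA preparation, per the labels' protocols. The values are raw counts per gene that the authors deposited, made per the file headers with featureCounts 1.5.0-p1 on GENCODE release 24 without strand, leaving out duplicate, multimapped and multiply assigned reads. The exon lengths are other values of the deposited table. STAR, DESeq2 1.10.1 and GRCh38 are named in the submitters' processing notes. Counts were scaled with DESeq2 1.42.0 size factors in R 4.3.3, and log2 ratios were taken after adding 1. Counting errors used 0.5 added to each count, and intervals are 1.96 standard errors wide on each side. Genes whose normalised count averaged at least 50 (12662 of 60554, with 99.7% of counts) were kept. The table gives Ensembl identifiers, which were named by position against RefSeq GRCh38.p14: protein-coding genes on the same strand, mutually best in overlap, sharing at least 0.5 of the joint span, or 0.25 with an end within 1000 bases. This named 18551 genes, and 33 of 37 members also met both conditions (not DNAJB11, TRIB3, ASNS or PHGDH).

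No test was possible with 1 library per group. The ratio procedure was checked on simulated counts that held counting error only, so that check says nothing about the error between replicates. Values in all libraries were given for HSPA5, XBP1, ATF4 and DDIT3 and, per comparison, for the 6 members with the largest ratio whose interval excludes 0, and of other lists the 3 largest were named for the inputs, enrichment and pull-downs. Further members were named to account for all 37. The members and lists were chosen with earlier results of these data known. Alternatives covered scaling (edgeR 4.0.16 TMM, total counts), pseudocount, filter, background, name match and fold threshold. Seed matches in transcripts were not analysed here.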

Additional observations from a re-analysis of the deposited data

Results flagged for a closer look

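For 4 members the ratio of pull-down over its own input had opposite signs with the 2 miRNAs and both intervals excluded 0. Each time the ratio was lower on the miR-491-5p beads and higher on the control beads. CANX had a log2 ratio of -0.52 on the miR-491-5p beads and 0.32 on the control beads. On the same beads DNAJB9 had -0.11 and 0.27, DNAJC3 had -0.33 and 0.15, and DDIT4 had -0.22 and 0.30. Of the 12662 genes measured, 1767 (14.0%) had opposite signs with both intervals excluding 0, and 1062 (8.39%) had them in this direction. The difference was not tested, since each group is 1 library. For CANX the inputs differed and the pull-downs were close, while for DDIT4 and DNAJB9 the pull-downs differed more than the inputs. With total-count scaling CANX (-0.20 and 0.46) and DNAJC3 (-0.01 and 0.29) kept opposite signs, while DNAJB9 (0.21 and 0.41) and DDIT4 (0.10 and 0.44) were above 0 on both kinds of bead, each value given for the miR-491-5p beads and the control beads.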

How the results depend on the processing

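The limit of all values is 1 library per group, so no replicate could be left out, no paired analysis was possible because each group has 1 library, and only counting error is known. The 20 medians and counts moved by less than their error, or within 1.5 times, under pseudocounts of 0.5 and 5, a minimum mean of 10, no filter, and protein-coding genes as background. With total-count scaling the all-gene medians moved to 0.18 for enrichment, 0.17 for the pull-downs, 0.17 for the miR-491-5p beads and -0.01 for the control beads. The members moved with them: the enrichment median was 0.17 with 12 below 0 and 3 at least 1.5-fold higher, and the pull-down median 0.10 with 11 below 0 and 1 higher. On the miR-491-5p beads it was 0.088 with 14 below 0, 6 higher and 1 lower, and on the control beads 0.0082 with 5 lower. TMM gave 2 higher on the miR-491-5p beads. A minimum mean of 200 left 36 members and 1 higher in the input. The stricter name match left 33 members and a control bead median of -0.013. At 2-fold, 0 members were higher and 0 lower in the input, 0 and 0 in enrichment, 1 was lower between pull-downs, 0 lower on the miR-491-5p beads, and 1 higher and 2 lower on the control beads. Of 192 values for named members under 4 alternatives, 34 moved beyond their error, 32 of them with total counts. Among those that moved, no value past 1.5-fold changed sign, while HSPA5 on the miR-491-5p beads (0.0049) and XBP1 between pull-downs (0.10) did with total counts.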
